A study of Peromyscus maniculatus with 16 samples.

Results

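Fatty acid uptake and lipid droplet genes were followed in the livers of 16 deer mice (Peromyscus maniculatus), outbred rodents kept as closed stocks. The members were chosen by name, as Cd36, Fabp1, Plin2, Plin4, Plin5, Cidec, Cideb, G0s2, Pnpla2 and Lipe. Of these 10 genes, 9 were among the 16910 genes counted and were described here, and Plin4 was not analysed here. All 9 passed the filter on low counts, which left 12639 genes to be tested.

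The control group (C) held 6 male animals on regular diet. A high fat diet (HFD) rich in fat and sucrose was given to 10 animals, of which 5 showed no steatosis by histology (NS) and 5 showed it (S). All NS animals were male. The S group held 3 females, animals 35955, 35982 and 35990, and 2 males, animals 10880 and 36016. Diets were given for 28 weeks, starting at 3 to 4 months of age, and all animals were 10 months old at termination. The SM2 stock was represented by C animal 10876, NS animal 10865 and S animal 10880, and the other 13 animals were of the BW stock. The groups as a model have limits that the labels give. Steatosis was not assigned but arose in some of the animals on the same diet, and all females were in S.

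Hepatocytes take up fatty acids from blood and bind them in the cytosol. Surplus fatty acid is esterified to triglyceride and stored in lipid droplets, whose surface carries perilipins and CIDE proteins. Lipases release the fatty acid again, and small protein inhibitors hold the lipases back. Cd36 is a fatty acid transporter of the cell surface, and Fabp1 is the main cytosolic fatty acid binding protein of liver. Plin2 and Plin5 are perilipins that coat droplets, Cidec enlarges droplets by lipid transfer, and Cideb also serves the lipidation of very low density lipoprotein. Pnpla2 encodes ATGL, the lipase of the initial step of triglyceride breakdown, G0s2 encodes an inhibitor of ATGL, and Lipe encodes hormone-sensitive lipase.

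Levels are given as CPM, the counts of a gene brought to a common library size by the total count and the TMM factor. CPM is not divided by gene length, so levels were compared between animals and not between genes. Total counts ranged from 4640733 to 11349971 per animal. All members had at least 32 counts in each animal. The groups were compared with edgeR's quasi-likelihood test in a single fit of all 16 animals. A call required at least a 2-fold change together with an adjusted p-value (Benjamini-Hochberg over all genes tested) under 0.1. The 3 comparisons with C share the control animals, and the comparison of HFD with C uses the mean of NS and S.

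The sampled tissue was whole liver. In bulk liver, fewer cells of a type and less RNA per cell cannot be told apart. The 5 hepatocyte markers in the table, of 8 listed, summed to between 24747 and 52416 CPM. The 9 adipocyte markers summed to between 1.41 and 5.10 CPM in C, 2.86 and 12.4 CPM in NS and 3.34 and 10.2 CPM in S. The adipocyte markers Lep and Adrb3 were at 0 in all 16 animals, Adipoq reached 2 counts at most and Plin1 had 1 count in 1 NS animal.

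Of the 9 members, 2 were called in S vs C, both higher in S, and these were Cd36 and Fabp1. For all genes tested the share called was 4.06%, and 10.8% passed the adjusted p-value at any fold, where the same 2 members passed. The share was 0.0712% in NS vs C and 0.0791% at any fold, and no member passed. In S vs NS it was 0.00791% by both limits, a single gene, and no member passed. Comparing all HFD animals with C, 0.894% of genes were called and 2.67% passed at any fold, and Fabp1 was the only member that passed either limit. In edgeR, unadjusted p-values under 0.05 were found for 2 members in NS vs C, Fabp1 and Cideb, beside 8.29% of all genes, and for 1 member in S vs NS, Cd36, beside 10.9% of all genes. DESeq2 called 1 member in each of these comparisons, Fabp1 and Cd36, beside 0.419% and 0.562% of all genes. The median log2 fold change of the 9 members was 0.12 comparing S with C, -0.09 comparing NS with C and -0.03 for S against NS. For all genes tested the medians were 0.10, 0.01 and 0.04 in the same order.

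**Figure D1:**
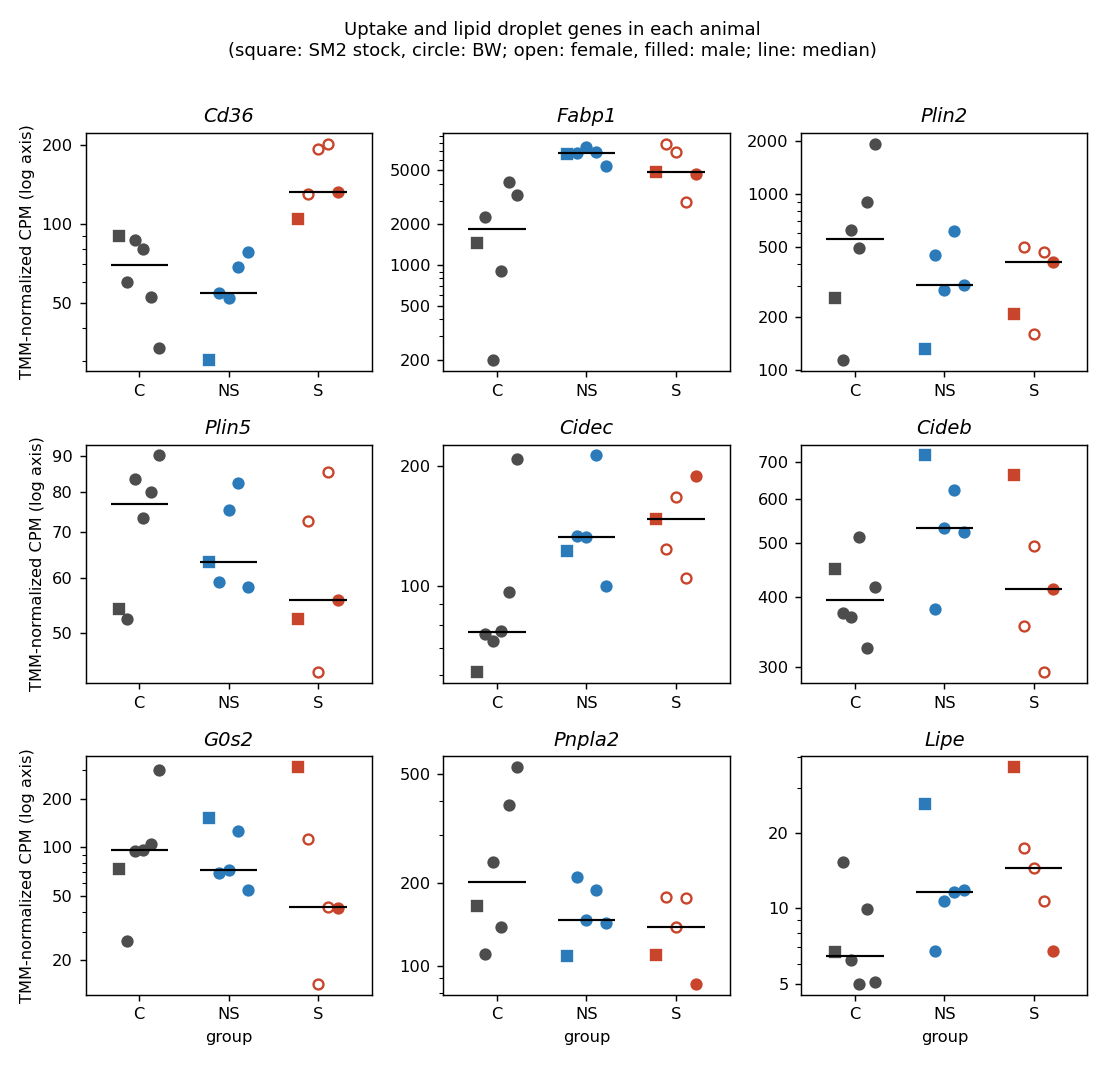
TMM-normalized CPM (log axis) of 9 uptake and lipid droplet genes in each of the 16 animals of C, NS and S. Each point is an animal, squares are SM2, circles BW, open symbols females and filled symbols males, and lines are group medians. Cd36 in S lies above C and NS, Fabp1 in NS lies above C, and Plin2 is highest in a C animal at 1929.5 CPM.

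Fatty acid uptake was represented by Cd36. In C, Cd36 ranged from 33.5 to 89.9 CPM with a median of 69.8. The NS animals had 30.1 CPM in 10865, 54.2 in 35930, 52.1 in 35937, 68.4 in 35963 and 78.3 in 35987. The S animals had 104 CPM in 10880, 129 in 35955, 193 in 35982, 202 in 35990 and 132 in 36016. All 5 S animals were above all 11 other animals, while NS and C overlapped over most of their range.

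Cd36 was 2.27-fold higher in S than in C, a log2 fold change of 1.18 ± 0.27 (SE) with an adjusted p of 0.0294 in edgeR. The ranges of the groups did not overlap, which was so for 4.19% of genes in this comparison. In S vs NS Cd36 was 2.68-fold higher, with a log2 fold change of 1.42 ± 0.28 (SE). Its unadjusted p was 0.0001, but the adjusted p of edgeR was 0.211, so that this difference was not called, although the ranges again did not overlap (1.18% of genes). DESeq2 gave an adjusted p of 0.0014 for this difference. With edgeR it was called with stock as a covariate (0.0694), in BW animals alone (0.0788) and without S animal 10880 (0.0738). The call in S vs C was kept without each animal in turn, with log2 fold changes of 1.05 to 1.29 and adjusted p-values of 0.0189 to 0.0682. In NS vs C the log2 fold change of Cd36 was -0.24 ± 0.27 (SE), with an adjusted p of 0.857 in edgeR, and over all HFD animals it was 0.47 ± 0.23 (SE), with an adjusted p of 0.296.

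Within S the sexes overlapped in Cd36 only by male 36016, at 132 CPM, and female 35955, at 129 CPM. The 3 female S animals had 129 to 202 CPM and the 2 male S animals 104 and 132 CPM. Both males were above the highest of the 11 male C and NS animals, at 89.9 CPM. That C animal and the S male at 104 CPM were both of the SM2 stock. With sex as a covariate the log2 fold change of S vs C was 0.82 ± 0.33 (SE) with an adjusted p of 0.159 in edgeR, and in male animals alone it was 0.82 with an adjusted p of 0.186. Both values rest on the 2 male S animals, since C and NS held no female.

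Cd36 is also known from macrophages, endothelium and adipocytes, and markers of these cells were summed in each animal. The 8 endothelial markers summed to between 159 and 299 CPM in C, 175 and 257 CPM in NS, and 134 and 321 CPM in S. The 8 macrophage markers in the table, of 10 listed, summed to between 183 and 436 CPM in C, 208 and 388 CPM in NS, and 179 and 753 CPM in S. The 3 female S animals had the highest endothelial sums of all 16 animals, 321 CPM in 35955, 318 in 35982 and 318 in 35990, and 35982 and 35990 also had the highest Cd36. The highest macrophage sum was that of 35990. S animal 10880, with the lowest Cd36 of S at 104 CPM, had the lowest endothelial and the lowest macrophage sum of all 16 animals. The 6 stellate cell markers summed to between 254 and 517 CPM in C, 186 and 385 CPM in NS, and 185 and 380 CPM in S. No endothelial, macrophage or adipocyte marker was called in the 4 comparisons, whereas the stellate cell marker Dcn was called lower in S vs C and the hepatocyte marker Apoa1 higher in HFD vs C. Neither stood for its list, whose median log2 fold change was 0.07 for stellate markers in S vs C. For hepatocyte markers in HFD vs C the median was -0.35. The part of these cells in the Cd36 difference was not tested.

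Fatty acid binding in the cytosol was represented by Fabp1. In C, Fabp1 ranged from 200.005 CPM in 35975 to 4140.1 CPM in 36001, with a median of 1861. Among NS the levels were 6586 CPM in 10865, 6762 in 35930, 7492 in 35937, 6853 in 35963 and 5387 in 35987. Animals of S had 4852 CPM in 10880, 7877 in 35955, 6845 in 35982, 2950.4 in 35990 and 4710.4 in 36016. All NS animals and 4 of the 5 S animals were above the highest C animal, and S animal 35990 lay within the range of C.

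Fabp1 was 2.67-fold higher in S than in C, a log2 fold change of 1.42 ± 0.48 (SE) with an adjusted p of 0.0927 in edgeR. For all HFD animals against C the fold was 2.94, with a log2 fold change of 1.56 ± 0.44 (SE) and an adjusted p of 0.0928 in edgeR. Groups of HFD and C did not overlap for 0.348% of genes, and no member was among them. The difference between NS and C was 3.24-fold, a log2 fold change of 1.70 ± 0.48 (SE), but with an adjusted p of 0.350 in edgeR it was not called, whereas DESeq2 gave 0.0464. The ranges of NS and C did not overlap for Fabp1, which was so for 0.989% of genes. In S vs NS the log2 fold change was -0.28 ± 0.50 (SE). The call of Fabp1 lay near the limit. Without a filter on low counts the adjusted p was 0.102 for S vs C and 0.103 for HFD vs C in edgeR, and with sex as a covariate it was 0.252 and 0.118. Without single animals the adjusted p of S vs C ranged from 0.0787 to 0.158, and the call was kept only without NS animal 10865, C animal 35975, C animal 36001 or S animal 35990. For HFD vs C it ranged from 0.0740 to 0.145, and the call was kept only without NS animal 35930 or the same C animals or S animal 35990. The direction of S vs C was kept without each animal in turn, with log2 fold changes of 1.18 to 1.75.

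**Figure D2:**
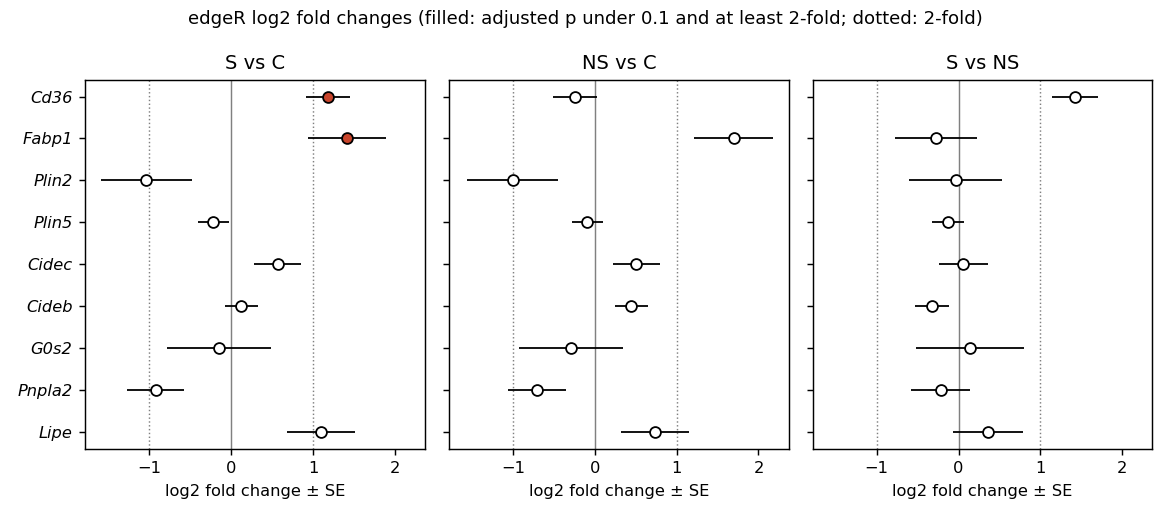
Log2 fold change ± SE of the 9 genes for S vs C, for NS vs C and for S vs NS, from the edgeR fit of 16 animals, where filled points are called and dotted lines mark 2-fold. Cd36 stands at 1.18 (S vs C) and 1.42 (S vs NS) but at -0.24 for NS against C, whereas Fabp1 stands at 1.42 and 1.70 in the comparisons with C but at -0.28 in S vs NS.

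The droplet coat was represented by Plin2 and Plin5. In C, Plin2 ranged from 113 CPM in 35972 to 1929.5 CPM in 36007, with a median of 557. The NS animals had 132 CPM in 10865, 451 in 35930, 285 in 35937, 619 in 35963 and 305 in 35987. The S animals had 207 CPM in 10880, 502 in 35955, 161 in 35982, 467 in 35990 and 412 in 36016. The highest values of Plin2 were in C animals, and every NS and S animal lay within the range of C.

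Plin2 was not called in any comparison. The log2 fold change of S vs C was -1.04 ± 0.56 (SE) with an adjusted p of 0.263 in edgeR, and that of NS vs C was -1.005 ± 0.56 (SE) with an adjusted p of 0.657. Without C animal 36007 the log2 fold change of S vs C was -0.45. S and NS differ by the presence of steatosis and also by sex, since only S held females. Between them the log2 fold change of Plin2 was -0.03, with a 95% interval (normal approximation from the SE) from -1.15 to 1.08. A change of Plin2 by 2-fold in either direction between S and NS is therefore within the error of these data.

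Plin5, the perilipin of oxidative tissues, varied less. It ranged from 52.4 to 90.3 CPM in C, with a median of 76.7. In NS it was between 58.4 and 82.4 CPM and in S between 43.9 and 85.4 CPM. The groups overlapped, and the log2 fold changes were -0.22 ± 0.19 (SE) for S against C, -0.09 ± 0.19 (SE) for NS against C and -0.13 ± 0.20 (SE) for S against NS, none of them called.

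The CIDE proteins were represented by Cidec and Cideb. Cidec ranged in C from 60.9 to 208 CPM, with a median of 76.6. Of the C animals, 5 had 96.5 CPM or less, and only 36007 had 208 CPM. Among NS the levels were 122 CPM in 10865, 134 in 35930, 133 in 35937, 212 in 35963 and 99.8 in 35987. Animals of S had 147 CPM in 10880, 124 in 35955, 167 in 35982, 105 in 35990 and 188 in 36016. All 10 HFD animals were above 5 of the 6 C animals and overlapped with the remaining one.

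Cidec was not called. Between S and C the log2 fold change was 0.57 ± 0.28 (SE), with an adjusted p of 0.230 in edgeR, 0.51 ± 0.28 (SE) in NS vs C and 0.06 ± 0.30 (SE) in S vs NS. Without C animal 36007, the log2 fold change of S vs C was 0.93 with an adjusted p of 0.0491 and that of HFD vs C was 0.90 with an adjusted p of 0.0611 in edgeR, both below 2-fold and thus not called.

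Cideb had a median of 395 CPM in C, with a range from 324 to 512 CPM. It was between 381 and 718 CPM in NS and between 293 and 663 CPM in S. The highest values in NS and S were those of the SM2 animals 10865 and 10880. The log2 fold change of NS vs C was 0.45 ± 0.20 (SE), with an unadjusted p of 0.0405 and an adjusted p of 0.594 in edgeR. Against C the S value was 0.12 ± 0.20 (SE), and S against NS gave -0.32 ± 0.21 (SE), neither of them called.

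Triglyceride breakdown was represented by Pnpla2, its inhibitor G0s2, and Lipe. In C, Pnpla2 ranged from 111 CPM in 35972 to 528 CPM in 36007, with a median of 203. The NS animals had 109 CPM in 10865, 211 in 35930, 146 in 35937, 189.5 in 35963 and 144 in 35987. The S animals had 109.5 CPM in 10880, 178 in 35955, 138 in 35982, 177 in 35990 and 86.0 in 36016. The 3 highest animals were all of C, and the groups overlapped below them.

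The log2 fold change of Pnpla2 was -0.92 ± 0.35 (SE) between S and C, with an unadjusted p of 0.0174 and an adjusted p of 0.126 in edgeR. In HFD vs C it was -0.82 ± 0.29 (SE), with an adjusted p of 0.160. Pnpla2 was thus not called, but in S vs C it was called without C animal 35998 (-1.05, adjusted p of 0.0831) or without C animal 35972 (-1.08, adjusted p of 0.0837). DESeq2 gave an adjusted p of 0.0655 at a change below 2-fold. In S vs NS the log2 fold change was -0.22 ± 0.36 (SE).

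G0s2 ranged from 26.1 to 301 CPM in C, with a median of 95.9. In NS it was between 54.7 and 153 CPM. Animals of S had 313 CPM in 10880, 112 in 35955, 14.3 in 35982, 42.7 in 35990 and 41.9 in 36016. S thus held both the highest and the lowest animal of the series, which differed 21.96-fold. The log2 fold changes were -0.15 ± 0.63 (SE) in S vs C, -0.29 ± 0.64 (SE) in NS vs C and 0.14 ± 0.66 (SE) in S vs NS. None was called, and the value of S vs C moved between -1.13 and 0.40 when single animals were left out and was 0.61 with sex as a covariate.

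Lipe was counted at low levels. It ranged from 5.00 to 15.3 CPM in C, with a median of 6.47. Among NS the levels were 26.1 CPM in 10865, 6.79 in 35930, 10.7 in 35937, 11.6 in 35963 and 11.8 in 35987. The S animals had 36.4 CPM in 10880, 17.4 in 35955, 14.5 in 35982, 10.7 in 35990 and 6.76 in 36016. The highest animals were 10880 and 10865, the SM2 animals on HFD, whereas the SM2 animal on regular diet had 6.69 CPM. The sum of the adipocyte markers was also highest in these animals, 10.2 and 12.4 CPM, of which Cidea made up 4.26 and 5.67 CPM. Adipoq was at 0.244 CPM in 10880 and 0 in 10865, and the part of adipocytes in Lipe was not tested.

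The log2 fold change of Lipe in S vs C was 1.09 ± 0.42 (SE), with an unadjusted p of 0.0172 and an adjusted p of 0.125 in edgeR, so that it was not called. DESeq2 gave a log2 fold change of 1.09 with an adjusted p of 0.0779, past both limits of a call. Without C animal 35972 the edgeR value was 1.37 with an adjusted p of 0.0820. Without NS animal 10865 the adjusted p was 0.0920. Lipe had a log2 fold change of 0.74 ± 0.42 (SE) in NS vs C and 0.36 ± 0.43 (SE) in S vs NS. In BW animals alone the value of HFD vs C, which was 0.91 ± 0.37 (SE) over all animals, was 0.43.

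The members differed in how much they varied among animals on the same diet. Within C, the highest and the lowest animal differed 20.7-fold for Fabp1, 17.0-fold for Plin2 and 11.5-fold for G0s2. These ratios were above those of 99.3%, 99.0% and 98.5% of the 8167 genes with a mean of at least 5 CPM. Plin5 and Cideb varied least of the members in C, with ratios of 1.72 and 1.58, above those of 50.4% and 36.7% of these genes. Fabp1 in NS had a ratio of 1.39, with 18.2% of genes below it. In S the widest ratios were those of G0s2, 21.96-fold, and Lipe, 5.39-fold, with 98.7% and 93.5% of genes below them. Both had their highest S value in 10880, the SM2 animal of S.

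The C animals at the extremes were the same for several members. Animal 36007 had the highest Plin2, Plin5, Cidec, G0s2 and Pnpla2 of the C group and the lowest Cd36. Animal 35972 had the lowest Plin2, Plin5, G0s2 and Pnpla2 of C and the highest Lipe. On CPM by total count Plin5 was lower in C animal 10876, at 50.8 CPM, than in 35972, at 51.0 CPM.

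The coordination of members across animals was tested for all 36 pairs on log2(CPM + 1), with permutation tests. After Benjamini-Hochberg adjustment over the pairs, 4 Pearson's r had an adjusted p under 0.05. Plin2 and Pnpla2 had r = 0.82 and Spearman's rho = 0.81, with permutation p-values of 9.0e-05 and 0.0002 and adjusted p-values of 0.0032 and 0.0059. Without the C animals 36007 and 35972, the animals farthest from the median of Plin2, r was 0.70. Plin2 and Plin5 had r = 0.77 and rho = 0.81, with permutation p-values of 0.00039 and 0.00033 and adjusted p-values of 0.0070 and 0.0059, and r was 0.72 without the same animals. Plin5 and Pnpla2 had r = 0.66 and rho = 0.71, with permutation p-values of 0.0039 and 0.0028 and adjusted p-values of 0.0355 and 0.0332, and r was 0.63 without C animal 36007 and S animal 35982.

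The fourth pair was Fabp1 and Cidec. It had r = 0.65 and rho = 0.64, with permutation p-values of 0.0031 and 0.0101 and adjusted p-values of 0.0355 and 0.0906, and r was 0.61 without the C animals 35975 and 35998. When each animal was centred on the mean of its group, so that differences between groups were left out, r was 0.43 with an adjusted permutation p of 0.456 for Fabp1 and Cidec. Within groups r was 0.82 for Plin2 and Pnpla2 and 0.77 for Plin2 and Plin5, both with an adjusted permutation p of 0.0254. For Plin5 and Pnpla2 it was 0.62 with an adjusted permutation p of 0.151. On CPM by total count, 2 pairs remained across all animals, Plin2 and Pnpla2 with r = 0.80 (adjusted permutation p of 0.0036) and Fabp1 and Cidec with r = 0.70 (0.0211). Plin2 and Plin5, with r = 0.65 (0.0745), and Plin5 and Pnpla2, with r = 0.46 (0.235), no longer passed on this scale. Within groups no pair passed on it, with an adjusted permutation p of 0.0767 for Plin2 and Pnpla2 and of 0.0794 for Plin2 and Plin5. In the 13 BW animals alone, Plin2 and Pnpla2 (r = 0.80) and Plin2 and Plin5 (r = 0.79) passed across animals, while Fabp1 and Cidec (adjusted permutation p of 0.0628) and Plin5 and Pnpla2 (0.0775) did not. The pairs gained in BW animals were those of G0s2 with Plin2 (r = 0.89), Plin5 (r = 0.82) and Pnpla2 (r = 0.72). Within groups of BW animals Plin2 and G0s2 alone passed, with r = 0.91 (adjusted permutation p of 0.0083), against 0.114 for Plin2 and Pnpla2 and 0.0504 for Plin2 and Plin5. No Pearson's r of Cd36 with another member had an adjusted p under 0.05 in any of these settings.

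**Figure D3:**
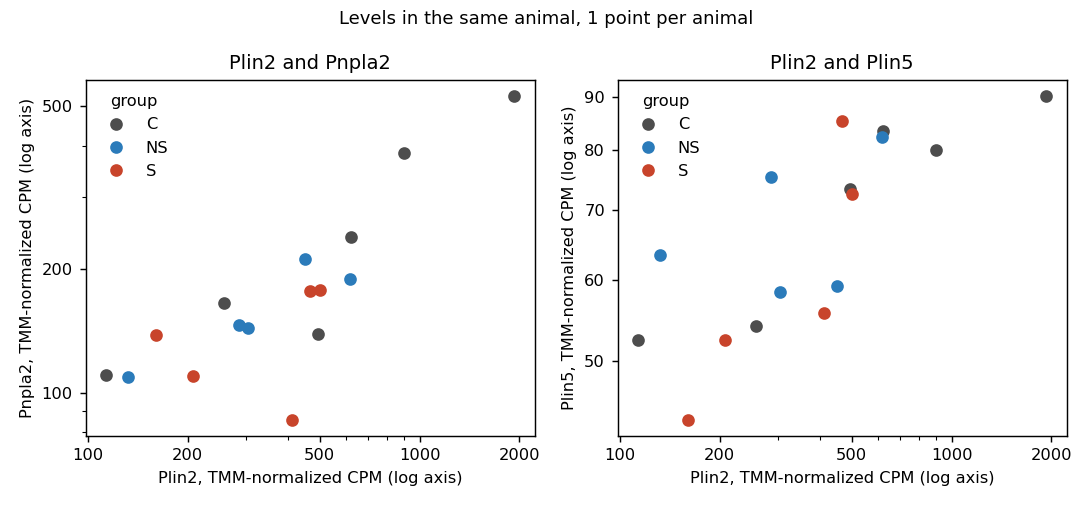
Plin2 (x axis) against Pnpla2 (left) and Plin5 (right) in TMM-normalized CPM on log axes, with 1 point per animal coloured by group. Both panels rise from C animal 35972, at 113 CPM of Plin2, to C animal 36007, at 1929.5 CPM, and animals of all 3 groups lie along the same range.

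The genes whose pattern over the 16 animals was most like that of Cd36, by Pearson's r of log2(CPM + 1) among 8182 genes with a mean of at least 5 CPM, were Tgfbr2 (r = 0.85), Plk2 (r = 0.84) and Pxdn (r = 0.80). Tgfbr2 is a receptor of TGF-beta, and it was between 1.76 and 6.42 CPM in C and NS and between 4.26 and 13.0 CPM in S. The genes most like Fabp1 were Ppp6r1 (r = 0.85), Xpo5 (r = 0.84) and Ddx49 (r = 0.81). These values describe the likeness and were not tested.

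Beside the members, 55 gene symbols of uptake, binding, activation, droplet formation, lipases and their regulators were examined, of which 48 were in the table and 45 were tested. In S vs C 4 of the 45 were called, 3 higher and 1 lower, beside 4.06% of all genes. Unadjusted p-values of edgeR under 0.05 were found there for 17 of the 45, beside 3010 of all 12639 genes. For NS against C and for S against NS edgeR called none, with unadjusted p-values under 0.05 for 9 and 4 of the 45, beside the 8.29% and 10.9% of all genes given above, and DESeq2 also called none. In HFD vs C 1 was called, and it was lower, beside 0.894% of all genes. Here 14 of the 45 had an unadjusted p under 0.05 in edgeR, beside 2262 of all 12639 genes. The median log2 fold change of the 45 genes was -0.02 for S against C, 0.04 for NS against C and -0.01 for S against NS. The medians of all genes tested were 0.10, 0.01 and 0.04 in the same order. None of the 17 tested proteins of the droplet surface and of droplet formation, a list with Plin3, Hsd17b13 and the seipin gene Bscl2, was called in any comparison. The share of all genes called was 4.06% in S vs C and at most 0.894% in the other comparisons, so few calls were to be met among 17 genes. Pnpla3 and Hilpda, described below, were listed as a lipase and a lipase regulator and are not among the 17.

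Hilpda, which encodes another inhibitor of ATGL, was lower. It had 1.38 CPM in 10876, 1.73 in 35972, 1.66 in 35975, 0.156 in 35998, 8.35 in 36001 and 15.1 in 36007 of C. It was between 0.678 and 1.38 CPM in NS and between 0.365 and 1.22 CPM in S. The ranges overlapped, and C animal 35998 had a single count. Hilpda differed by a log2 fold change of -2.80 ± 0.79 (SE) between S and C (adjusted p of 0.0561 in edgeR) and -2.51 ± 0.61 (SE) in HFD vs C, with an adjusted p of 0.0609. Both calls were lost without C animal 36007, with -1.99 and an adjusted p of 0.142 and with -1.69 and an adjusted p of 0.223. They were also lost without C animal 36001, with adjusted p-values of 0.110 and 0.150, and without S animal 35982, with 0.104 and 0.102. The call in S vs C was further lost without S animal 36016 (0.110), and that in HFD vs C without NS animal 35987 or 35937 (0.103 in both). With sex as a covariate the call in S vs C was lost (0.112), and in male animals alone both were (0.140 and 0.109).

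Pnpla3, a protein of droplets related to ATGL, was higher in S than in C. It ranged in C from 10.5 to 83.8 CPM, with a median of 27.4. Animals of S had 193 CPM in 10880, 80.6 in 35955, 322 in 35982, 18.6 in 35990 and 149.6 in 36016. Of the S animals, 3 were above C and 2 were within its range. For Pnpla3 the log2 fold change was 1.98 ± 0.63 (SE) with an adjusted p of 0.0782 in edgeR, and without S animal 35982 it was 1.51 with an adjusted p of 0.177. The call was also lost without C animal 10876, 35975, 36001 or 36007 and without S animal 10880 or 36016, with adjusted p-values of 0.103 to 0.150. It was lost as well with sex as a covariate (0.118), in BW animals alone (0.146) and in the fit of only S and C (0.104). The NS animals had between 23.3 and 128 CPM, and the log2 fold change of NS vs C was 1.24 ± 0.62 (SE), which was not called.

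The calls of Cav1 and Acsl6 in S vs C were each lost without a single S animal. Cav1, the caveolin of caveolae, had 237 CPM in S animal 36016 and at most 2.29 CPM in all other animals. Its log2 fold change between S and C was 5.54 (adjusted p of 0.0343 in edgeR) and was 0.59 with an adjusted p of 0.549 without this animal, and DESeq2 gave no p-value. In the same library the muscle gene Acta1 was at 118 CPM, against at most 0.882 CPM elsewhere, while Ckm, another muscle gene, was at 0. In animal 36016 Cidec was the highest and Pnpla2 and Lipe were the lowest of S, and the other 6 members lay within the range of S. Without it Cd36 was still called in S vs C, and Fabp1 was not (adjusted p of 0.136 in edgeR). Acsl6, an acyl-CoA synthetase, had 33.6 CPM in S animal 10880, 6.68 CPM in NS animal 10865 and 2.55 CPM or less in all others. For Acsl6 the log2 fold change between S and C was 5.15 (adjusted p of 0.0689 in edgeR) and was 1.55 with an adjusted p of 0.507 without animal 10880. The call was also lost without C animal 35972, 35975, 36001 or 36007, with adjusted p-values of 0.107 to 0.138. In BW animals alone it was lost as well (0.127), at a log2 fold change of 3.87. With stock as a covariate it was kept, at a log2 fold change of 4.47 and an adjusted p of 0.0304 in edgeR.

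Another gene of the list, Soat2, passed the adjusted p-value below 2-fold and was chosen for description after its values were seen. Soat2 esterifies cholesterol. It was between 16.7 and 28.9 CPM in C, 24.9 and 40.2 CPM in NS and 24.4 and 35.5 CPM in S. Between S and C the log2 fold change was 0.55 ± 0.17 (SE), with an adjusted p of 0.0663 in edgeR, and 0.58 ± 0.14 (SE) in HFD vs C, with an adjusted p of 0.0652. In S vs NS it was -0.06 ± 0.17 (SE).

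The transporter Slc27a5 was the single gene of the 45 whose ranges did not overlap between NS and C, beside 0.989% of all genes. It was likewise chosen after its values were seen. It was between 941 and 1484 CPM in C, between 529 and 906 CPM in NS and between 579 and 1169 CPM in S. Its log2 fold change in NS vs C was -0.67 ± 0.20 (SE), with an adjusted p of 0.402 in edgeR and 0.0995 in DESeq2, below 2-fold and not called. In S vs C the value was -0.52 ± 0.20 (SE), with an adjusted p of 0.138 in edgeR. HFD vs C gave -0.59 ± 0.17 (SE), with an adjusted p of 0.1001 in edgeR and 0.0237 in DESeq2, also below 2-fold.

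**Figure D4:**
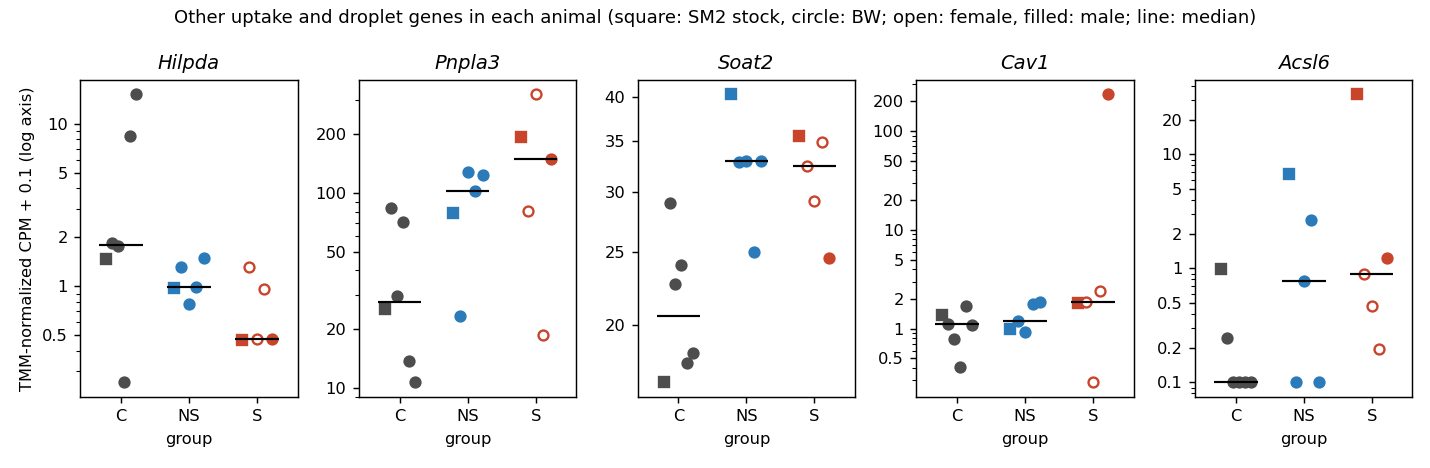
TMM-normalized CPM + 0.1 (log axis) of Hilpda, Pnpla3, Soat2, Cav1 and Acsl6 in each animal of C, NS and S, where squares are SM2, circles BW, open symbols females and lines are medians. A single S animal carries Cav1 (237 CPM) and another has the highest Acsl6 (33.6 CPM), whereas Soat2 is higher in most HFD animals than in C.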

How the data were processed

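Liver RNA of 16 deer mice was sequenced as paired-end reads from NEBNext Ultra II Directional libraries. According to the study's methods and the submitters' processing notes, the authors aligned the reads with STAR 2.7.2 to HU_Pman_2.1 and used featureCounts to assign reads with a unique position to genes, and the values they deposited are raw counts. The strand setting and the conversion to gene symbols are not given in the sources used here, so counts of genes that overlap, of antisense genes and of similar paralogs, such as those of the Fabp, Acsl and Plin families, are uncertain. Every line of the table names a gene and every column was assigned to an animal. Diet, steatosis, sex and stock came from the sample labels. Replicates are separate animals.

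Counts were tested in R 4.3.3 with edgeR 4.0.16 (limma 3.58.1), with TMM factors and its quasi-likelihood test, without covariates, for genes that reached 0.5 CPM in 1 animal or more. Calls needed an adjusted p under 0.1 and a fold change of 2, limits taken from the study's methods. P-values were adjusted by Benjamini-Hochberg over all 12639 genes. The SE of a log2 fold change was its size divided by the square root of the F statistic. The calls were tested on simulated data. Correlations used 100000 permutations, within groups for centred values. Python 3.11.15 was used with scipy 1.17.1, pandas 2.3.3, numpy 2.4.6 and matplotlib 3.10.9. The members and gene lists were chosen with earlier results of these data known. All members were named, as were listed genes called in at least 1 comparison and the 3 genes most like each called member.

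The alternatives were RLE size factors, DESeq2 1.42.0, no filter on low counts or at least 1 CPM in at least 5 animals, sex or stock as a covariate, only BW or only male animals, fits restricted to the groups compared, an adjusted p under 0.05, CPM by total count and log2(CPM + 4) for correlations, and each animal left out in turn. A stock by diet term and the count of genes without overlap were added after the data were seen. Precision is limited by the spread between animals rather than by counting, except for genes with a few counts (Hilpda, Acsl6, Cav1). Body weight and histology were not analysed here.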

Additional observations from a re-analysis of the deposited data

Results flagged for a closer look

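Cidec in C animal 36007 was 208 CPM, set apart from the other 5 C animals at 60.9 to 96.5 CPM. On log2(CPM + 1) the gap was 0.626 of the range of C, just above Dixon's 95% critical value of 0.625 for 6 samples. It was the only one of 27 combinations of member and group to be set apart, and chance sets apart about 1 in 20.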

How the results depend on the processing

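The count of members called in S vs C was 1 instead of 2 without a filter on low counts, in BW animals alone, in the fit of only the groups compared and at an adjusted p under 0.05, and 0 with sex as a covariate and in male animals alone. With DESeq2 it was 3, which were Cd36, Fabp1 and Lipe, beside 550 of all 12639 genes. At any fold it was 4 with DESeq2, 1 without a filter, in BW animals alone and in the fit of only the groups compared, and 0 with sex and in males. Without single animals both counts were 1 to 3. Of all genes, 513 of 12639 were called in S vs C, 455 of 14659 without a filter and 610 of 12333 in BW animals. The fit of only S and C gave 394 of 12458, sex as a covariate 768 of 12639 and males alone 679 of 12492. Leaving out single animals gave 192 to 573 genes. DESeq2 raised the count of members in NS vs C from 0 to 1, by both limits, and that of all genes called from 9 to 53. In S vs NS the count rose from 0 to 1 with DESeq2, with stock as a covariate and in BW animals alone, and ranged from 0 to 1 without single animals. The number of all genes called rose as well, from 1 to 71 with DESeq2, 17 with stock and 18 in BW animals. In HFD vs C the 1 call became 0 without a filter, with sex, in BW animals, in males, in the fit of 2 groups and at an adjusted p under 0.05, and 2 members passed at any fold with DESeq2. Without single animals the count was 0 to 1. All genes called in HFD vs C numbered 113, against 92 without a filter, 228 with sex and 77 in BW animals. They numbered 142 in males and 65 in the fit of 2 groups.

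Of the other uptake and droplet genes, 1 was called in S vs NS with sex and in males instead of 0. It was Cav1, high in S animal 36016 alone, beside 191 and 157 of all genes. In HFD vs C the count was 4 with DESeq2 and with sex, 3 with stock and 2 in males, instead of 1. Acsl6 was called in each of these settings, and Cav1 with sex and in males. All genes called there numbered 240, 228, 231 and 142 in the same order, instead of 113. Without single animals the count of the other uptake and droplet genes was 1 to 5 in S vs C and 0 to 3 in HFD vs C. On CPM by total count the correlated pairs numbered 2 instead of 4, and 0 instead of 2 within groups, where BW animals gave 1.

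The sign turned only for values that lay between -0.29 and 0.36 on the log2 scale. In BW animals alone it turned for Cd36 in NS vs C (0.0091), Cideb in S vs C (-0.033) and G0s2 in S vs NS (-0.59). With stock it turned for Plin2 (0.056) and G0s2 (-0.17) in S vs NS. With sex and in males it turned for G0s2 in S vs C (0.61 in both) and HFD vs C (0.16 in both). Without single animals the log2 fold change ranged from -0.24 to 0.26 for Plin2, from -0.040 to 0.26 for Cidec and from -0.11 to 0.75 for Lipe in S vs NS, and from -0.065 to 0.24 for Cideb in S vs C. For G0s2 it ranged from -1.13 to 0.40 in S vs C, -0.53 to 0.26 in NS vs C, -0.84 to 0.42 in S vs NS and -0.72 to 0.33 in HFD vs C. The cause of these changes was not tested. The fits of BW and male animals also held fewer animals. No paired analysis was possible because the groups hold separate animals and the labels match none of them between groups.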

Other observations

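The SM2 animals on HFD, NS animal 10865 and S animal 10880, were the highest of all 16 animals for some other genes of fatty acid handling beside Lipe and Cideb. Mlxipl, a carbohydrate-responsive transcription factor of lipid synthesis, was at 795 and 726 CPM in them, at 132 CPM in the SM2 animal on regular diet and at 51.1 to 228 CPM in the BW animals. Cidea, a CIDE protein of brown fat and fatty liver, was at 5.67 and 4.26 CPM, against at most 0.927 CPM elsewhere. Fabp5 was at 91.5 and 216 CPM, and at 43.2 CPM in the SM2 animal on regular diet. Abhd5, the activator of ATGL, was at 147 and 129.5 CPM, against at most 100.1 CPM elsewhere. These genes were chosen after their values were seen, and the share of all genes with this ranking was not counted. Not all members followed it. Cd36 was the lowest of all 16 animals in 10865, at 30.1 CPM, and the lowest of S in 10880, at 104 CPM. Plin2 was at 132 and 207 CPM in 10865 and 10880, within the range of C.

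A stock by diet term, added after the data were seen, passed an adjusted p under 0.1 in edgeR for 9 of 12639 genes (0.0712%) and for none of the members. Its log2 value, the effect of HFD in SM2 minus that in BW, was 1.77 ± 0.70 (SE) for Lipe with an adjusted p of 0.533, -1.38 ± 0.48 (SE) for Cd36 with an adjusted p of 0.450, 2.64 ± 1.29 (SE) for G0s2 with an adjusted p of 0.609, and 1.75 ± 0.62 (SE) for Mlxipl with an adjusted p of 0.473. The SM2 arm holds 1 animal on regular diet, which is assumed to vary like the others.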
